A study of Arabidopsis thaliana with 6 samples.

Results

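The 47 genes described here run the plant cell cycle and DNA replication, and all 47 were found by locus identifier among the 33557 loci of the deposited table. They were taken from a list of loci and grouped by role into 11 genes of G1 and entry into S phase, 4 inhibitors of cyclin-dependent kinases, 13 genes of origin licensing and DNA synthesis, 14 genes of G2 and mitosis, 2 cytokinesis genes and 3 genes of endocycle control. RNA was sequenced from the whole aerial part of Arabidopsis thaliana, Col-0 accession. The quadruple mutant camta1/2/3/sid2, with 3 libraries, was set against wild type (WT), with 3 libraries. Plants of both genotypes stood on soil at 22 °C in a 12 h photoperiod with 100 to 120 µmol m-2 s-1 of light, and were sampled at an age of 21 days at ZT12, that is 12 h after lights on. The mutant carries mutations in the genes of 3 calmodulin-binding transcription factors, CAMTA1, CAMTA2 and CAMTA3, and in SID2, which encodes the isochorismate synthase needed for most salicylic acid made in immunity. The labels name no alleles and do not say how many plants made up a library.

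In plants, D-type cyclins bind the kinase CDKA;1 and inactivate the retinoblastoma-related protein RBR1, which frees E2F transcription factors to switch on S-phase genes. Replication origins are loaded with the MCM helicase, copied with the sliding clamp PCNA and supplied with deoxynucleotides by ribonucleotide reductase. Entry into mitosis depends on B-type kinases with A- and B-type cyclins, whose genes are activated by MYB3R factors. Many leaf cells leave this cycle and go on to copy their DNA without dividing, a process called the endocycle, in which CDK inhibitors and the CCS52A activators of the anaphase-promoting complex take part.

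The file gives 1 value per genotype and locus in FPKM (sequenced fragments, scaled by the authors for how long a transcript is and how deep a library is), so no difference below has a replicate check, an error or a p-value. Depth is unknown. The log2 ratio is the mutant minus the WT value of log2(FPKM + 1), and percentages are plain ratios of FPKM. All 47 members were among the 18547 loci analysed, which had at least 1 FPKM in at least 1 genotype. CAMTA1 was at 3.30 FPKM in the mutant and 13.6 in WT, CAMTA3 at 2.68 in the mutant and 9.94 in WT, CAMTA2 at 6.32 in the mutant and 9.25 in WT, and ICS1 (SID2) at 3.73 in the mutant and 4.56 in WT. Without the position of each mutation, these levels do not check the genotypes. Of the leaf markers, RCA was at 3121 FPKM in the mutant and 1944 in WT, LHCB3 at 815 in the mutant and 1760 in WT, and LOX2 at 612 in the mutant and 630 in WT. Of the root markers, PLT1 was listed at 0 in both genotypes and WOX5 was at 0.362 in the mutant and 0.303 in WT, PYK10 at 55.8 in the mutant and 51.6 in WT, and CASP1 at 1.57 in the mutant and 0.940 in WT.

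Genes of DNA replication and mitosis were lower in the mutant by small amounts, whereas the D-type cyclins did not share 1 direction. In bulk shoots a smaller share of dividing cells and less RNA per dividing cell cannot be told apart. All 13 genes of licensing and DNA synthesis and 13 of 14 genes of G2 and mitosis were lower, with median log2 ratios of -0.24 and -0.16. The 6 D-type cyclins among the members had a median of 0.07 and 5 of them were higher, against 35.4% of all analysed loci. The 3 analysed D-type cyclins outside the members were all lower, so that 5 of 9 were higher in all, with a median of 0.01. Over all members 38 of 47 (80.9%) were lower, against 64.6% of all analysed loci, and the median was -0.15 against -0.06. At least a 1.2-fold lower value was found in 9 members (19.1%), against 11.0% of all loci. That excess depended on the scaling, since with the log2 ratios centred on the median of all loci it was 1 member (2.13%) against 6.92% of loci, and centred on the reference genes 1 member against 6.32%. The only member at least 1.5-fold lower was SIM, against 1.99% of loci, and under either centring it was not past that fold, and 0 members were lower by at least 2-fold, against 0.690% of loci. Only CYCD3;3 was at least 1.2-fold higher, against 7.38% of loci. For higher values, 0 members reached 1.5-fold or 2-fold, against 1.81% and 0.787% of loci. These folds are on the log2(FPKM + 1) scale.

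**Figure D1:**
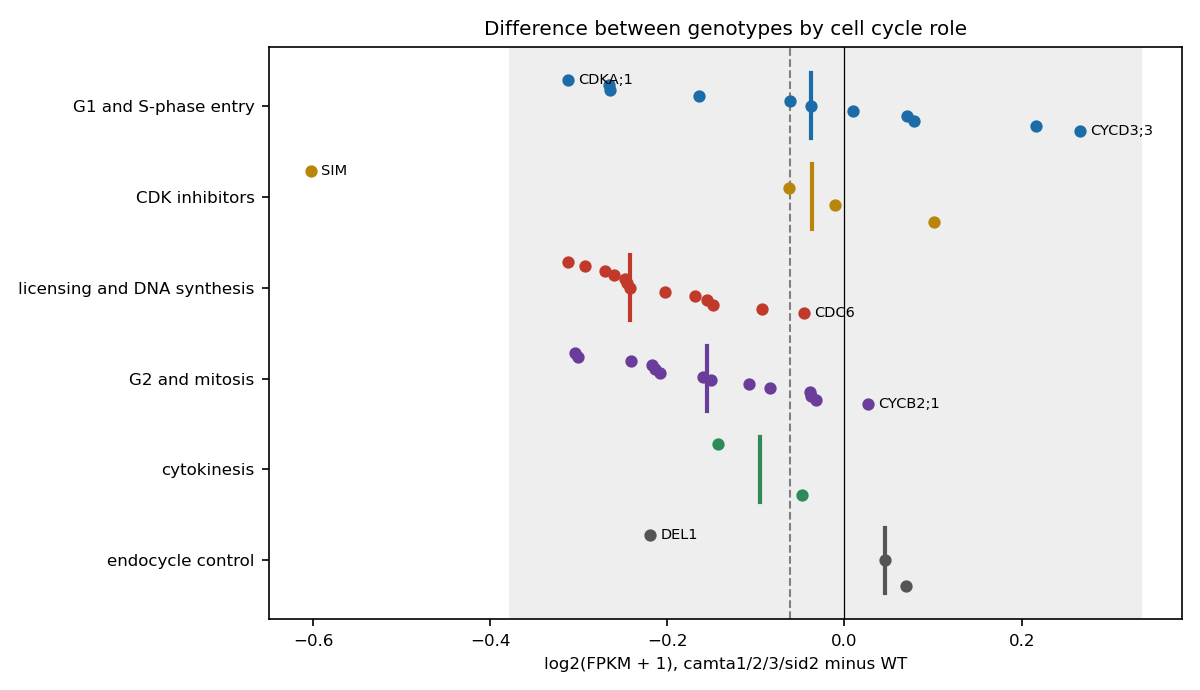
Log2 ratio, mutant minus WT on the log2(FPKM + 1) scale (x axis), of the 47 members by role (y axis), with 1 point per gene and a coloured bar at the median of each group. The grey band spans the 5th to the 95th percentile of all analysed loci, -0.38 to 0.33, and the dashed line is their median, -0.06. SIM is the only point outside the band.

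Loci of the level at which most members lie were somewhat more often lower than loci as a whole. Among the 5602 loci with a mean of 3 to 10 FPKM, 69.8% were lower, and 21 of the 23 members in that range were. Among the 5639 loci from 10 to 30 FPKM, 68.6% were lower, and 12 of 16 members were. The median log2 ratio there was -0.19 over the members and -0.07 over the loci.

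**Figure D2:**
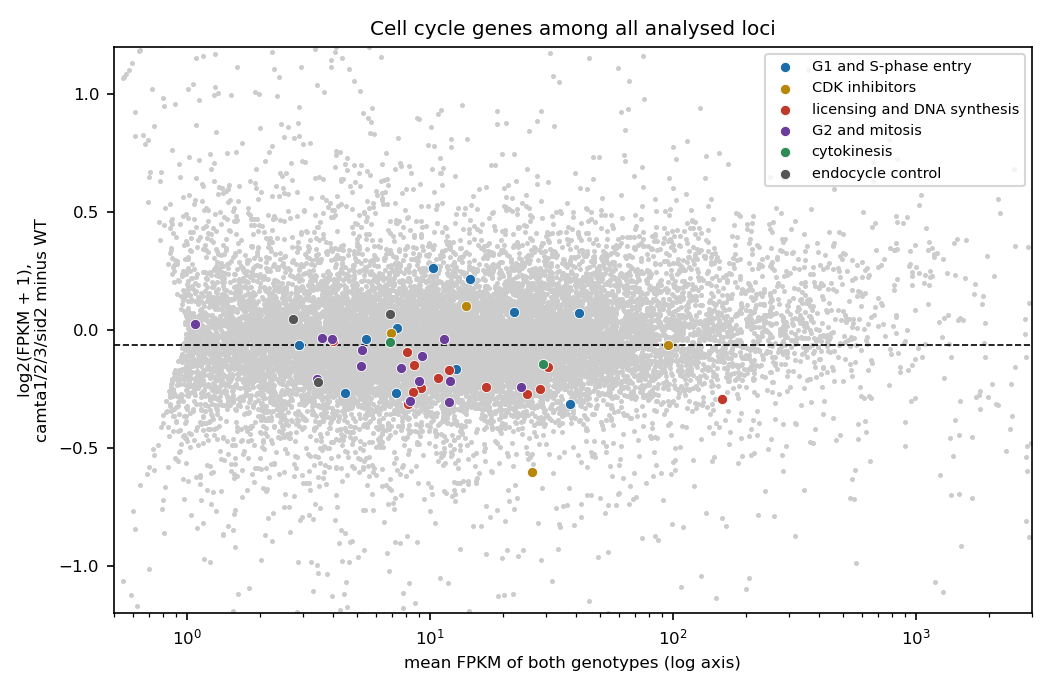
Log2 ratio (y axis) against the mean FPKM of both genotypes (x axis, log scale) for all analysed loci in grey and the 47 members in the colours of their role. The dashed line is the median of all analysed loci and 220 loci beyond the axes are not drawn. Most members of licensing, DNA synthesis, G2 and mitosis lie below the dashed line at levels between 3 and 30 FPKM.

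E2F factors bind sites of the type TTTCCCGC or TTTGGCGC, and both were searched on either strand of the 250 bases before the annotated gene start in RefSeq TAIR10.1. They were found for 5 of 6 MCM genes (83.3%), against 0.958% of 27443 protein-coding genes, and for RBR1 and CYCD3;3 among the other members. RBR1 was lower, and its stretch is not shown. The other stretches are shown because all MCM genes were lower, MCM7 without such a site included, while CYCD3;3, with a site, was higher. Each is written 5′ to 3′ along the gene, and capitals mark the site, which reads GCGGGAAA or GCGCCAAA where it lies on the opposite strand.
MCM2: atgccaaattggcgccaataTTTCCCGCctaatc
MCM3: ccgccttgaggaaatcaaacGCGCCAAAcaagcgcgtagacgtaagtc
MCM4: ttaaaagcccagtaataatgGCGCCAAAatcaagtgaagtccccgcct
MCM5: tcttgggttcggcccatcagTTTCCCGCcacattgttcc
MCM6: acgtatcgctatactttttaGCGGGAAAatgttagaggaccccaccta
CYCD3;3: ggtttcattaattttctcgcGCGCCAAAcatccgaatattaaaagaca
In TAIR10.1 these lie at chr1:16970180-16970213 on the plus strand for MCM2 and, on the minus strand, at chr5:18773849-18773896 for MCM3, chr2:7130737-7130784 for MCM4, chr2:3527501-3527539 for MCM5, chr5:18010686-18010733 for MCM6 and chr3:18566911-18566958 for CYCD3;3. The site begins 14, 170, 35, 19 and 46 bases before the gene start in MCM2, MCM3, MCM4, MCM5 and MCM6, and 104 bases before it in CYCD3;3, the member with the highest log2 ratio. Over all 181 analysed loci with an E2F-type site in the window the median log2 ratio was -0.11 and 74.0% were lower, against -0.06 and 65.1% of the 17592 loci without one.

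The same windows were searched for AACGG, the core of the M-phase activator element bound by MYB3R factors. This core, on either strand, was found for 6 of 8 B-type cyclins and for both cytokinesis genes, against 20.6% of all protein-coding genes. It was also found for 2 of 4 CDK inhibitors, 3 of 11 genes of G1 and S-phase entry and 2 of 13 genes of licensing and DNA synthesis. KRP1, which was higher in the mutant, had 6 cores, more than any other member, while the B-type cyclins that had the core held 3 or 4 each. CYCB1;4 and CYCB2;4 had none in this window. A stretch around 1 core of each is shown, since several share more than the core. Capitals mark that core, AACGG, which reads CCGTT on the opposite strand. The CYCB2;3 stretch also holds another core, ccgtt, left in lower case near its end.
CYCB1;1: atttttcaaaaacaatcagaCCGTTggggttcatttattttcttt
CYCB1;2: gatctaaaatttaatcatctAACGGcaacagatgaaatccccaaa
CYCB1;3: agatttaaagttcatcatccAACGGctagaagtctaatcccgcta
CYCB2;1: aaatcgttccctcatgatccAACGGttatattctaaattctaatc
CYCB2;2: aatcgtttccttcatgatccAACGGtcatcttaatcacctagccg
CYCB2;3: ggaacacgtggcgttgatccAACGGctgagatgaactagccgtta
The stretches lie at chr4:17624345-17624389 for CYCB1;1, chr5:1861722-1861766 for CYCB1;2, chr3:3627288-3627332 for CYCB1;3 and chr1:7137870-7137914 for CYCB2;3, all on the minus strand of TAIR10.1, and at chr2:7663950-7663994 for CYCB2;1 and chr4:16901452-16901496 for CYCB2;2 on the plus strand. The run tgatccAACGG of 11 bases is shared by CYCB2;1, CYCB2;2 and CYCB2;3 and was present, on either strand, in 29 of 27443 windows (0.106%). The shorter run atccAACGG of 9 bases is shared by these and CYCB1;3 and was present in 179 windows (0.652%). Both runs were looked up after the sequences were seen. The core CGCG, contained in the element that CAMTA factors bind, was found for 7 of 47 members (14.9%), against 10.1% of all windows, in 3 of 13 licensing and DNA synthesis genes and in none of the 14 genes of G2 and mitosis. In RBR1, CYCD3;3 and MCM3 a CGCG overlaps the E2F-type site. The median log2 ratio was -0.07 over the 1905 analysed loci with a CGCG core, with 67.4% lower, and -0.06 over those without one, with 64.9% lower. For the AACGG core it was -0.07 over 3929 loci with it and -0.06 over those without. A match describes letters in a window and does not show that a factor binds there.

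The 6 subunits of the MCM2 to MCM7 helicase, which unwinds DNA at the fork, were all lower, by 11.9% to 21.6%. MCM6 (AT5G44635) was at 7.15 FPKM in the mutant and 9.11 in WT, and MCM7 (AT4G02060), the subunit also called PROLIFERA, was at 11.2 in the mutant and 12.7 in WT. These were the ends of the range. MCM4 (AT2G16440) was at 7.66 FPKM in the mutant and 9.38 in WT, MCM2 (AT1G44900) at 8.31 in the mutant and 10.03 in WT, and MCM3 (AT5G46280) at 15.4 in the mutant and 18.4 in WT. MCM5 (AT2G07690) was at 9.93 in the mutant and 11.6 in WT. The summed level of the 6 was 59.7 FPKM in the mutant and 71.2 in WT, 16.2% lower. MCM7 was the subunit with the smallest difference, 11.9% against 14.2% for MCM5, and the one without an E2F-type site in the window. Whether the site bears on the size of the difference was not tested. In the RefSeq annotation 8.82% of the MCM7 gene overlaps AT4G02050 on the opposite strand. The FPKM of AT4G02050 in the mutant was 1.25 times that in WT, and its reads may be included in the MCM7 values.

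The loaders of the helicase among the members differed less than its subunits, which did not hold for loading genes outside the members. CDT1B, chosen for mention after its values were seen, was at 2.96 FPKM in the mutant and 3.70 in WT, 19.9% lower. The genes of the origin recognition complex summed to 23.6 in the mutant and 29.0 in WT, 18.5% lower. CDT1A (AT2G31270), which brings MCM to origins, was at 8.10 FPKM in the mutant and 9.09 in WT, 10.9% lower. CDC6 (AT2G29680), its partner in licensing, was at 3.90 in the mutant and 4.06 in WT, 3.87% lower, and had the smallest difference of the 13. CYCA3;1 (AT5G43080), a cyclin of the transition from G1 to S phase, was at 7.76 in the mutant and 8.35 in WT.

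The clamp and the nucleotide-supply genes were higher in level than the helicase and lower in the mutant by 10.5% to 18.5%. TSO2 (AT3G27060), the main small subunit of ribonucleotide reductase, had the highest level of all members, at 142 FPKM in the mutant and 174 in WT, 18.5% lower. RNR1 (AT2G21790), the large subunit, was at 25.9 in the mutant and 31.0 in WT, 16.3% lower, so that the level of TSO2 was 5.49 times that of RNR1 in the mutant and 5.63 times in WT. The other small subunit, RNR2A, which is not a member, went the other way at 23.9 FPKM in the mutant and 19.3 in WT, 23.6% higher. PCNA1 (AT1G07370) was at 22.7 in the mutant and 27.6 in WT and PCNA2 (AT2G29570) at 28.9 in the mutant and 32.3 in WT. Their proteins are identical at 97.0% of 263 aligned residues, and reads common to both may have been assigned to either. Their sum was 51.6 in the mutant and 59.9 in WT. On the opposite strand AT2G29560 overlaps 15.1% of the PCNA2 gene. AT2G29560 was at 13.0 FPKM in the mutant and 14.6 in WT, and its reads may be included.

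**Figure D3:**
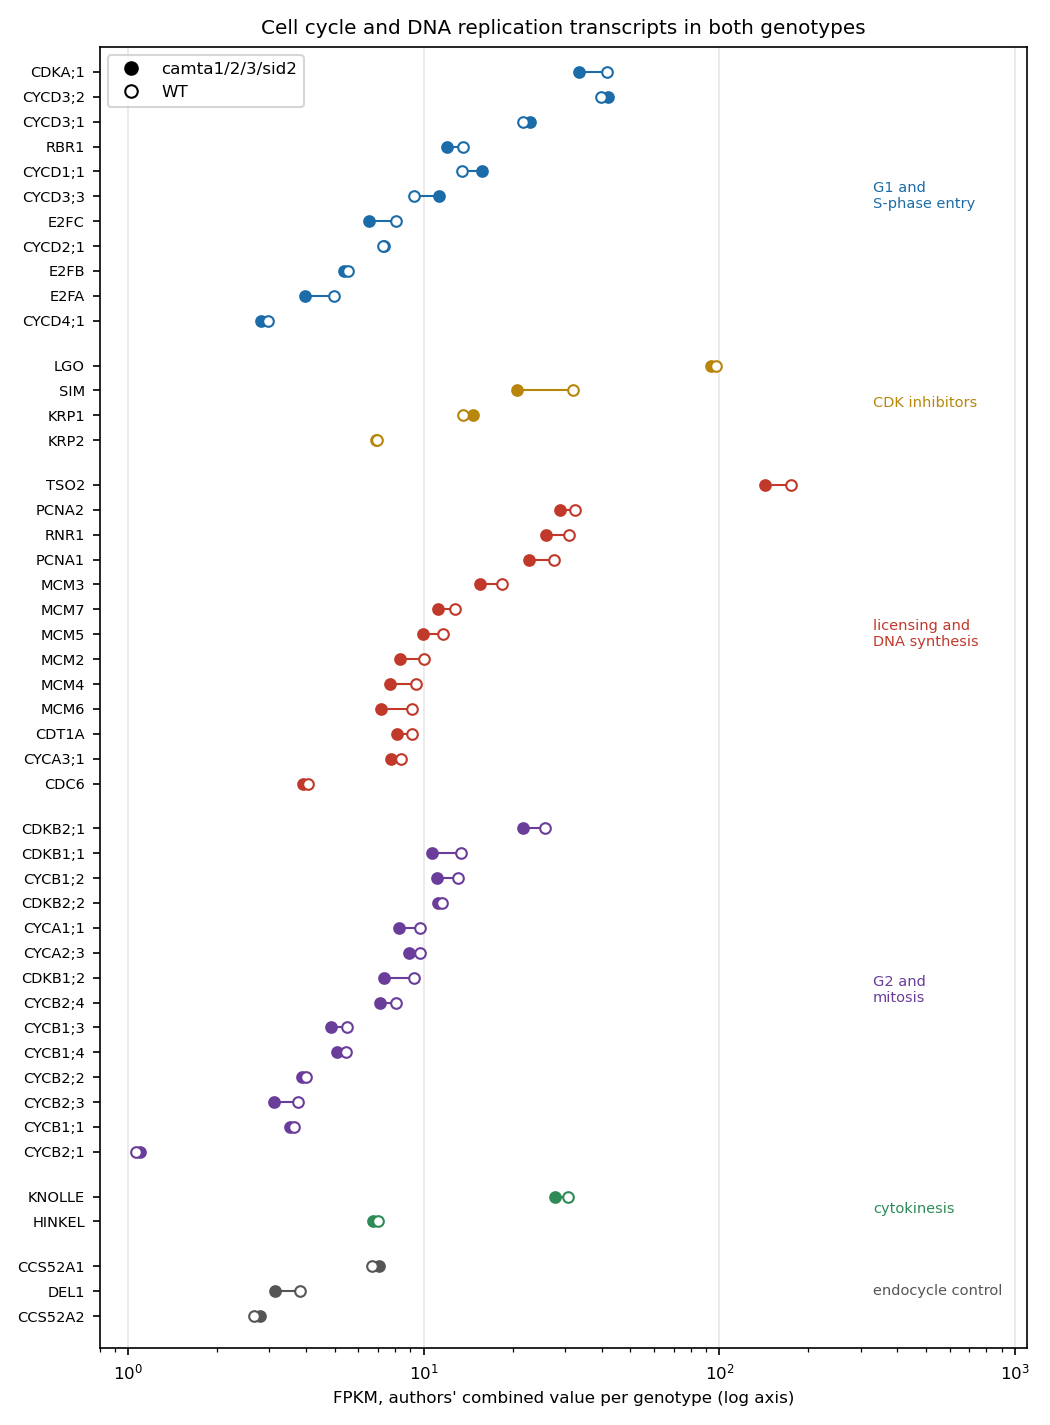
FPKM (x axis, log scale) of each member (y axis, grouped by role and ordered by the WT level) in camta1/2/3/sid2 (filled) and WT (open). In the licensing and DNA synthesis group every filled point lies left of its open point. CYCD1;1, CYCD3;1, CYCD3;2 and CYCD3;3 show the opposite order.

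Kinases and cyclins of G2 and mitosis were lower in the mutant, except for 1 low cyclin. With the log2 ratios centred on the median of all analysed loci, 10 of these 14 genes were lower, against 50.0% of loci. Of the B-type kinases, which are specific to plants and act from G2 to mitosis, both CDKB1 genes had the largest differences of the group. CDKB1;1 (AT3G54180) was at 10.6 FPKM in the mutant and 13.4 in WT, 20.5% lower, and CDKB1;2 (AT2G38620) at 7.33 in the mutant and 9.26 in WT, 20.9% lower. CDKB2;1 (AT1G76540) was at 21.6 in the mutant and 25.7 in WT, 16.0% lower, whereas its close copy CDKB2;2 (AT1G20930) was at 11.2 in the mutant and 11.5 in WT, 2.80% lower. The CDKB1 proteins are identical at 88.7% and the CDKB2 proteins at 88.9% of aligned residues. On the opposite strand AT2G38630 overlaps 17.4% of the CDKB1;2 gene. AT2G38630 was at 8.87 FPKM in the mutant and 9.87 in WT, and its reads may be included.

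The 8 B-type cyclins among the members, which drive mitosis, summed to 39.8 FPKM in the mutant and 44.5 in WT, 10.7% lower. CYCB1;2 (AT5G06150) was at 11.1 in the mutant and 13.0 in WT and CYCB2;3 (AT1G20610) at 3.12 in the mutant and 3.76 in WT, the largest differences of the 8 at 15.0% and 17.0% lower. CYCB1;1 (AT4G37490), widely used to mark dividing cells, was at 3.54 FPKM in the mutant and 3.64 in WT, 2.77% lower. CYCB2;1 (AT2G17620) had the lowest level of all members, at 1.10 in the mutant and 1.06 in WT, and was the only one of this group that was higher. CYCB1;3 (AT3G11520) was at 4.87 in the mutant and 5.52 in WT, CYCB1;4 (AT2G26760) at 5.08 in the mutant and 5.44 in WT, CYCB2;2 (AT4G35620) at 3.87 in the mutant and 4.01 in WT and CYCB2;4 (AT1G76310) at 7.11 in the mutant and 8.06 in WT. The A-type cyclins went the same way, with CYCA1;1 (AT1G44110), which acts into mitosis, at 8.25 FPKM in the mutant and 9.73 in WT, and CYCA2;3 (AT1G15570), a partner of CDKB1;1, at 8.92 in the mutant and 9.68 in WT. Of the cytokinesis genes, the syntaxin KNOLLE (AT1G08560), which fuses vesicles at the cell plate, was at 27.8 in the mutant and 30.8 in WT, and the kinesin HINKEL (AT1G18370), which expands the phragmoplast, at 6.74 in the mutant and 7.01 in WT.

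The genes that act before S phase did not share 1 direction. The 6 D-type cyclins among the members summed to 102 FPKM in the mutant and 94.3 in WT, 8.06% higher, and their sum was 1.71 times that of MCM2 to MCM7 in the mutant and 1.32 times in WT. CYCD3;3 (AT3G50070) was at 11.3 in the mutant and 9.23 in WT, 22.4% higher, and CYCD1;1 (AT1G70210) at 15.8 in the mutant and 13.4 in WT, 17.4% higher. CYCD3;2 (AT5G67260), the highest cyclin of the list, was at 41.9 in the mutant and 39.8 in WT, and CYCD3;1 (AT4G34160), which answers to cytokinin, at 22.8 in the mutant and 21.6 in WT. CYCD2;1 (AT2G22490) was at 7.34 in the mutant and 7.29 in WT, and CYCD4;1 (AT5G65420), which acts in stomatal precursors of the hypocotyl, at 2.81 in the mutant and 2.98 in WT. Apart from CYCD1;1 and CYCD3;3 these 6 differed from WT by at most 5.83%, and of the 6 only CYCD4;1 was lower. The D-type cyclins outside the members, chosen for mention after their values were seen, were lower. CYCD5;1 was at 5.83 in the mutant and 6.58 in WT, 11.4% lower, CYCD6;1 at 9.12 in the mutant and 9.68 in WT, 5.75% lower, and CYCD4;2 at 2.95 in the mutant and 3.01 in WT, 2.04% lower. CYCD7;1, at 0.0994 in the mutant and 0.212 in WT, was under the filter.

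The kinase, the repressor and the transcription factors downstream of the D-type cyclins were lower, as were 64.6% of all analysed loci. CDKA;1 (AT3G48750), the central cell cycle kinase, was at 33.5 FPKM in the mutant and 41.8 in WT, 19.9% lower, and had the second lowest log2 ratio of the 47, at -0.31. RBR1 (AT3G12280) was at 12.0 in the mutant and 13.6 in WT, 11.5% lower. E2FA (AT2G36010), an activator of S-phase genes, was at 3.97 in the mutant and 4.97 in WT, and E2FC (AT1G47870), mostly a repressor, at 6.51 in the mutant and 8.03 in WT, 18.9% lower. E2FB (AT5G22220), the other activator, was at 5.35 in the mutant and 5.52 in WT, 3.06% lower. Its log2 ratio of -0.04 was above the median of all analysed loci, -0.06, so E2FB was not lower when centred on that median.

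Among the 4 CDK inhibitors of the members SIM stood apart. SIM (AT5G04470), also called SIAMESE, which promotes endocycles in leaf hairs, was at 20.7 FPKM in the mutant and 32.0 in WT, 35.2% lower, with a log2 ratio of -0.60. A lower log2 ratio was found for 1.87% of analysed loci. LGO (AT3G10525), its relative that sets giant cells in the epidermis, was at 93.5 in the mutant and 97.7 in WT, 4.31% lower, so that the level of LGO was 4.51 times that of SIM in the mutant and 3.05 times in WT. KRP1 (AT2G23430) was at 14.6 in the mutant and 13.6 in WT, 7.79% higher, and KRP2 (AT3G50630) at 6.87 in the mutant and 6.92 in WT. Both encode inhibitors of D-type cyclin complexes. In the RefSeq annotation 42.7% of the SIM gene and 45.4% of the LGO gene overlap another gene on the opposite strand, and 31.4% of KNOLLE does. Whether the authors counted by strand was not given in the sources used here, so reads of such partners may be included. The partners of SIM and LGO are not rows of the table, and that of KNOLLE was at 69.3 FPKM in the mutant and 53.4 in WT.

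Of the endocycle genes, those of the activators that direct mitotic cyclins to destruction were slightly higher. CCS52A1 (AT4G22910) was at 7.06 FPKM in the mutant and 6.68 in WT, 5.70% higher, and CCS52A2 (AT4G11920) was at 2.79 in the mutant and 2.67 in WT, 4.39% higher. DEL1 (AT3G48160), an atypical E2F that holds back the endocycle, was at 3.13 in the mutant and 3.81 in WT, 17.8% lower. On the opposite strand AT3G48170 overlaps 10.8% of the DEL1 gene. AT3G48170 was at 37.4 FPKM in the mutant and 35.2 in WT, and its reads may be included.

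Other genes of the same pathways showed like differences where they belong to replication and mitosis. These lists were chosen with earlier results of these data known, so they are no independent check of the members. Of 18 analysed replication genes outside the members, 17 were lower, against 64.6% of all analysed loci, and the median log2 ratio was -0.19. MCM10, which helps to start the fork, was at 3.48 FPKM in the mutant and 4.85 in WT, 28.2% lower, and the origin recognition subunits ORC6, at 3.74 in the mutant and 4.87 in WT, and ORC4, at 5.55 in the mutant and 7.08 in WT, were lower by 23.3% and 21.6%. RNR2A, given above, was the exception. Of 18 mitosis and cytokinesis genes 17 were lower, against the same share of loci, with a median of -0.14. At least 1.2-fold lower were 4 of the replication genes (22.2%) and 1 of the mitosis and cytokinesis genes (5.56%), against 11.0% of loci. The kinesin TES, which acts with HINKEL in cytokinesis, was at 2.39 in the mutant and 3.53 in WT, the largest difference of that list, while the anaphase activator CDC20.2 was at 8.91 in the mutant and 10.8 in WT, the vesicle-fusion factor KEULE at 16.2 in the mutant and 19.5 in WT and the cohesion protector PANS1 at 22.1 in the mutant and 26.4 in WT. The CDC20.2 protein is identical to CDC20.1 at 96.5% of aligned residues, so the genes can share reads.

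All 16 analysed cyclins and kinases outside the members, the 3 D-type cyclins included, were lower, with a median of -0.15. CYCA2;2 was at 2.02 FPKM in the mutant and 2.88 in WT, CYCA2;4 at 4.32 in the mutant and 5.16 in WT, and the CDK-activating kinases CDKD;1 at 1.77 in the mutant and 2.20 in WT and CDKD;2 at 7.02 in the mutant and 8.40 in WT. Of 13 genes of the anaphase-promoting complex and its regulators 12 were lower, with a median of -0.14, and APC8, at 3.42 in the mutant and 4.65 in WT, and APC6, at 3.30 in the mutant and 4.27 in WT, had the largest differences, before APC4, at 3.83 in the mutant and 4.59 in WT, and AT1G06590, annotated as a subunit of the complex, at 3.92 in the mutant and 4.64 in WT. The share of these lists that was lower is to be read against the 64.6% of all analysed loci. At least 1.2-fold lower were 1 of the cyclins and kinases (6.25%) and 2 of the anaphase-promoting complex list (15.4%), against 11.0% of loci.

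Inhibitors and E2F relatives outside the members went both ways. Of 11 analysed inhibitors 7 were higher, against 35.4% of all analysed loci, with a median of 0.06. SMR4 was at 2.33 FPKM in the mutant and 1.61 in WT and AT1G08180 at 10.8 in the mutant and 8.47 in WT, whereas SMR7 was at 1.94 in the mutant and 2.98 in WT and AT1G10690 at 7.73 in the mutant and 10.7 in WT. All 4 are annotated in RefSeq as CDK inhibitors. The dimerisation partners DPA, at 6.31 in the mutant and 6.37 in WT, and DPB, at 8.52 in the mutant and 9.11 in WT, were lower, and the atypical factors DEL2, at 2.77 in the mutant and 2.36 in WT, and DEL3, at 3.79 in the mutant and 3.39 in WT, were higher. The replication-coupled histone H3.1 genes were lower in 5 of 5, against 64.6% of all analysed loci, and summed to 681 FPKM in the mutant and 757 in WT. Among them AT1G09200 was almost level, at 239.2 in the mutant and 239.5 in WT. Of the histone H4 genes 5 of 8 were higher, against 35.4% of loci, with a sum of 771 in the mutant and 752 in WT. AT5G10390, an H3.1 gene, was at 43.7 in the mutant and 57.6 in WT, AT5G10400 at 114 in the mutant and 134 in WT and AT5G65360 at 237 in the mutant and 276 in WT, and AT1G07660, an H4 gene, was at 17.9 in the mutant and 15.3 in WT. The proteins within each histone class are identical, so single copies are uncertain. Of the DNA damage genes, SOG1, the regulator of the response, was at 7.50 in the mutant and 8.83 in WT, BRCA1 at 3.01 in the mutant and 3.20 in WT and ATM at 3.55 in the mutant and 3.64 in WT.

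**Figure D4:**
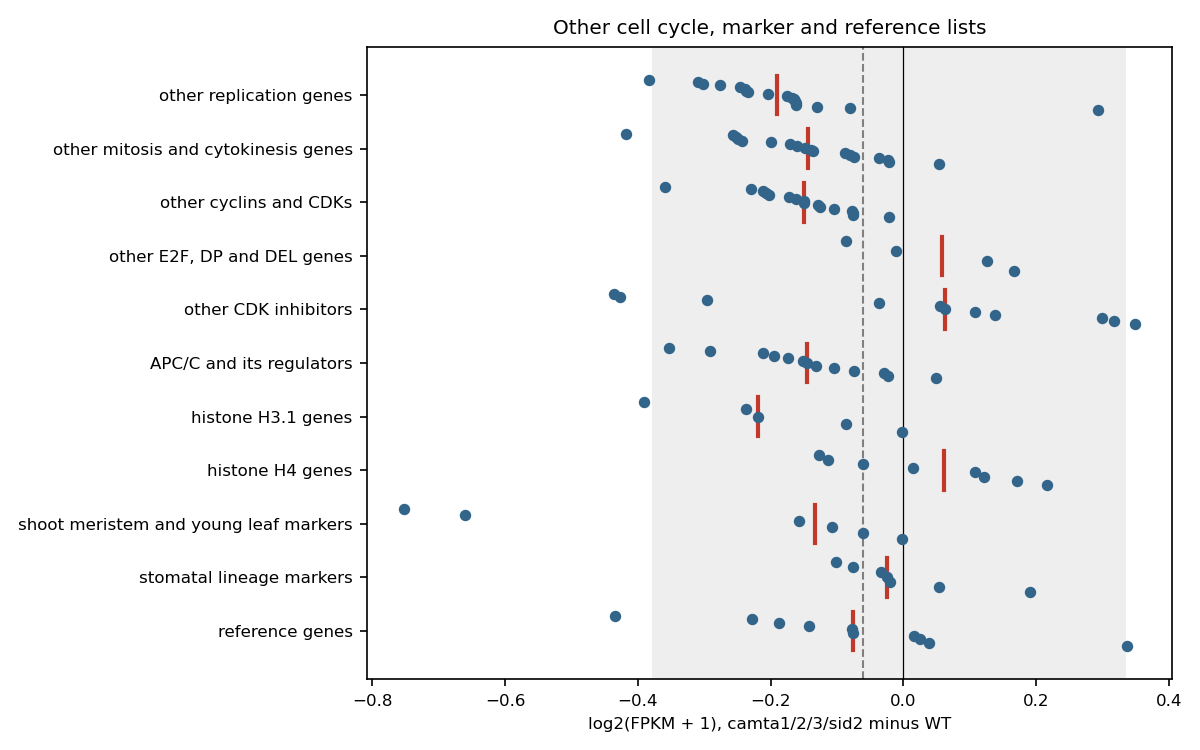
Log2 ratio, mutant minus WT on the log2(FPKM + 1) scale (x axis), of the analysed genes of each further list (y axis), with red bars at the list medians and the grey band and dashed line as for all analysed loci. The replication, mitosis, cyclin and anaphase-promoting complex lists have medians from -0.19 to -0.14, and the inhibitors and E2F relatives lie on both sides of 0.

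Markers of the tissues that hold dividing cells were read beside these genes. All 6 analysed markers of the shoot meristem and young leaf were lower, against 64.6% of all analysed loci, with sums over all 8 of 44.3 FPKM in the mutant and 51.6 in WT. STM was at 2.37 in the mutant and 4.67 in WT and KNAT1 at 2.47 in the mutant and 4.49 in WT. Both are meristem regulators and both were at least 1.5-fold lower, against 1.99% of all analysed loci. CLV1 was at 16.2 in the mutant and 18.2 in WT, and GRF5 at 4.23 in the mutant and 4.64 in WT. GIF1 was at 7.16 in the mutant and 7.51 in WT, and ANT, a driver of leaf cell proliferation, at 11.9 in both genotypes when rounded. The log2 ratios of GIF1 and ANT were -0.06 and -0.002, beside a median of -0.06 over all analysed loci. WUS was listed at 0 in the mutant and at 0.0328 in WT, and CLV3 was at 0.0396 in the mutant and 0.186 in WT. The stomatal lineage markers, which mark dividing epidermal precursors, summed to 59.7 in the mutant and 59.9 in WT, with 5 of 7 lower, near the share of all loci, and a median of -0.02. EPF2 was at 10.8 in the mutant and 9.32 in WT, SPCH at 4.92 in the mutant and 5.36 in WT, EPF1 at 12.1 in the mutant and 12.8 in WT and BASL at 2.38 in the mutant and 2.26 in WT. The part of the meristem markers in the differences of the cell cycle genes was not tested.

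Reference genes place the size of the differences. The 10 genes used for normalising had a median log2 ratio of -0.08, with 6 lower (60.0%), near the 64.6% of all analysed loci. They reached from UBC9, at 124 FPKM in the mutant and 168 in WT, to ACT2, at 390 in the mutant and 309 in WT. TIP41 was at 19.2 in the mutant and 22.7 in WT and AT4G26410 at 37.6 in the mutant and 42.9 in WT. Each MCM gene thus differed by less than UBC9 did. With the median of all analysed loci set to 0, 31 of 47 members were lower, against 50.0% of loci. By role, 12 of 13 genes of licensing and DNA synthesis and 10 of 14 genes of G2 and mitosis were lower. SIM was then the 1 member at least 1.2-fold lower, and 2.13% of members is under the 6.92% of loci at that setting.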

How the data were processed

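The deposited table holds FPKM values that the authors scaled to transcript length and mapped fragments, per the file headers, with 1 value per genotype and locus. The way the 3 libraries of a genotype were combined was not given in the sources used here. The submitters' processing notes name TopHat 1.4.1, Cufflinks 2.1.1, Cuffdiff and the build TAIR10. A pseudocount of 1 was added before log2, which understates the difference of low genes, and loci under 1 FPKM in both genotypes were left out. With no values per library, the planned description without a test was used. The members and lists were chosen with earlier results of these data known, and members are named in full. Of each other list up to 4 genes with the largest absolute log2 ratio and any past 1.5-fold are named, and other genes were chosen after their values were seen. A gene of the DNA damage list is not reported here. Symbols, overlaps and sequences came from RefSeq TAIR10.1, joined by locus identifier, which matched 32813 loci and all 47 members. Coordinates refer to that build alone, since the table has none. Protein identity was computed with blastp 2.17.0 over translated coding sequences. Python 3.11.15, numpy 2.4.6, pandas 2.3.3, biopython 1.88 and matplotlib 3.10.9 were used. The calculation was tested on simulated data.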

Additional observations from a re-analysis of the deposited data

How the results depend on the processing

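The medians of licensing and DNA synthesis (-0.26 to -0.17) and of G2 and mitosis (-0.19 to -0.08) were below 0, and that of endocycle control above 0, under all 8 alternatives, namely pseudocounts of 0.1 and 0.5, no filter, a filter of 5 FPKM, centring on all loci or on the reference genes, and leaving out members with a near-identical copy or, an alternative added after seeing the data, members overlapping another gene by at least 20%. Endocycle control has only 3 genes, of which DEL1 was lower, and with the filter of 5 FPKM its median rests on 1 gene. The median of G1 and S-phase entry, -0.04, became 0.010 with the filter of 5 FPKM, 0.023 when centred on all loci and 0.039 when centred on the reference genes. The median of the CDK inhibitors, -0.04, became 0.024 and 0.040 under the same centrings and 0.045 without SIM and LGO, which overlap another gene. The 9 members at least 1.2-fold lower became 1 under either centring, against 6.92% and 6.32% of all loci, and the member at least 1.5-fold lower became 0 under either centring and without overlapping members. Without a filter 6.87% of loci were at least 1.2-fold lower. These shifts were 0.06 and 0.08 on the log2 scale, and their cause was not tested. No paired analysis was possible because the columns carry no replicate, and leaving out single libraries was not run for the same reason.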
